A study of Canis lupus familiaris with 3 samples.

Results

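The genes described here encode the machinery of vesicle traffic: small GTPases of the Rab, ARF, ARL and SAR1 families, SNARE proteins, vesicle coats and adaptors, sorting proteins of endosomes, the exocyst, synaptotagmins and golgins. They were chosen by gene symbol, from all spots that the platform annotation pairs with a single symbol. Of 120 such genes, 106 had a value on all 3 arrays and were tested, among 5508 named genes in all. All 106 symbols are also in the dog gene table. The choice by symbol used no values, but it was made with earlier results of these data known. The choice by symbol also takes in genes outside vesicle traffic proper, such as the translocon genes SEC61A1, SEC61B and SEC62, and no caveolin was analysed here.

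The RNA came from MDCK cells, an epithelial line of dog kidney. MDCK transfectants with E47, a basic helix-loop-helix transcription factor, were compared with MDCK-CMV control cells, both grown in the same serum-containing medium, and the comparison addresses the regulation of E-cadherin and of the epithelial to mesenchymal transition. Of the E47 RNA, extraction 1 went on a single array in Cy5, and extraction 2 went on a pair of arrays with the dyes swapped, in Cy5 on one and in Cy3 on the other; control RNA carried the remaining dye each time. The arrays hold human cDNA clones. Whether the transfectants are 1 clone or a pool, and whether the extractions came from separate cultures, is not stated in any source used here.

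Every value below is a log2 ratio of E47 over control, first averaged over the spots of a gene and then over the 2 extractions. No source used here states the direction or the base of the logarithm; E47 over control is the likely direction, since the labels list E47 cells first and the title calls E47 a repressor, and base 2 is assumed. A ratio gives no level, so the labelled cell type could not be checked and genes cannot be ordered by abundance. Read in this direction, 5 of 5 measured epithelial markers (CDH1, EPCAM, KRT8, KRT19 and DSP) fell and 3 of 4 measured mesenchymal markers (FN1, SPARC and S100A4) rose, CDH1 itself being part of the basis for the direction. In bulk RNA, fewer cells that express a gene and less of its RNA per cell cannot be told apart.

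Vesicle traffic proceeds in steps that these families share out. Coats and adaptors bud vesicles from a donor membrane after recruitment by ARF or SAR1 GTPases, Rab GTPases mark each compartment and recruit motors and tethers, and SNAREs on vesicle and target fuse the membranes. In polarised epithelia such as MDCK monolayers the same machinery sends proteins to apical or basolateral surfaces, with RAB11 and RAB8 proteins and syntaxin 3 on apical routes, and ARF6 acts at the plasma membrane in endocytosis and recycling, including that of E-cadherin.

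Most of the genes had ratios close to 1. Of the 106, 91 had an absolute mean under 0.5 on the log2 scale, and the median over the genes was −0.04, with quartiles of −0.26 and 0.24. The median over all 5508 named genes was −0.02, with quartiles of −0.21 and 0.19. In the limma test of the ratio against 0, 8 of the 106 genes (7.55%) passed at an adjusted p under 0.05, against 9.19% of all named genes. SAR1B, ARL2BP, RAB8B and RAB2B rose, which is 3.77% against 5.34% of named genes, and ARF6, RAB11A, AP2B1 and GOLGA4 fell, which is 3.77% against 3.85%. A mean of at least 2-fold was seen in 5 genes (4.72%), against 4.76% of named genes. These shares lie near the background, so the count of calls is not a result about vesicle traffic genes.

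**Figure D1:**
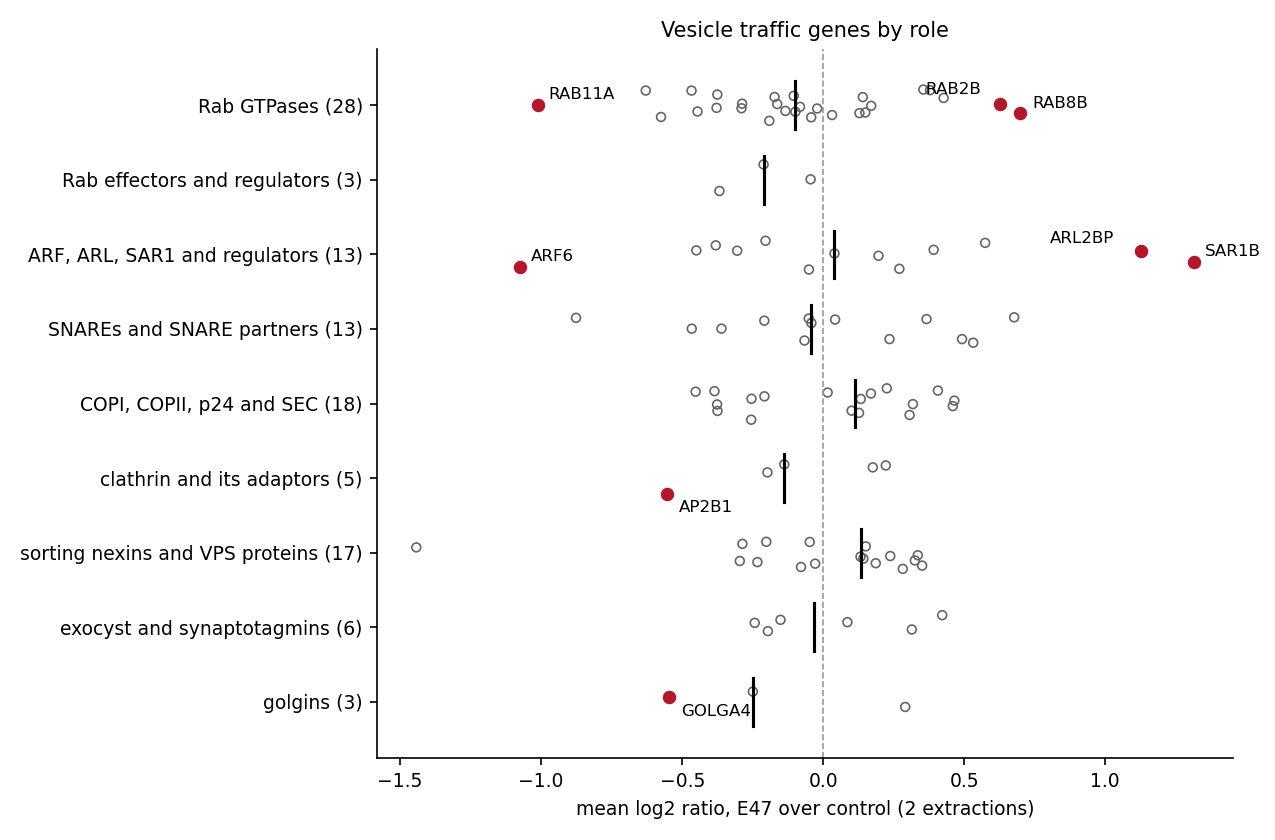
Mean log2 ratio of E47 over control (horizontal axis, 2 extractions) for each of the 106 vesicle traffic genes, by role, with the number of genes in brackets. Filled points had an adjusted p under 0.05 in limma, open points did not, the vertical bars are medians and the vertical scatter within a row has no meaning. The 8 filled points lie in 4 of the rows, and 91 of 106 points lie within 0.5 of 0.

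Across the 106 genes, extraction 1 and the mean of extraction 2 had a Pearson r of 0.87 and a Spearman rho of 0.89, where all 5508 named genes had 0.83 and 0.82. By array, r was 0.91 between the Cy5 arrays of the 2 extractions, 0.75 between extraction 1 and the Cy3 array, and 0.80 within the dye swap. Arrays of the same dye orientation were thus closer than the arrays of the same extraction. These values describe genes, which are not independent replicates, and every array sets E47 cells against the same kind of control cells. Of the genes, 36 (34.0%) were above 0 on all 3 arrays and 44 (41.5%) below, where the shares among all named genes were 30.6% and 32.8%. The unadjusted p was under 0.05 for 48 genes (45.3%), against 35.6% of all named genes; 24 of them were higher (22.6%, against 17.4%) and 24 lower (22.6%, against 18.2%). In 20 of the 106 genes the sign differed within the dye swap. The share among all named genes was not computed, and their r within the dye swap was 0.76. For COPG2, a subunit of the COPI coat, the arrays gave −0.58 in extraction 1 and 0.28 with Cy3 and −0.62 with Cy5 in extraction 2, so its mean of −0.38 hides arrays that disagree.

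**Figure D2:**
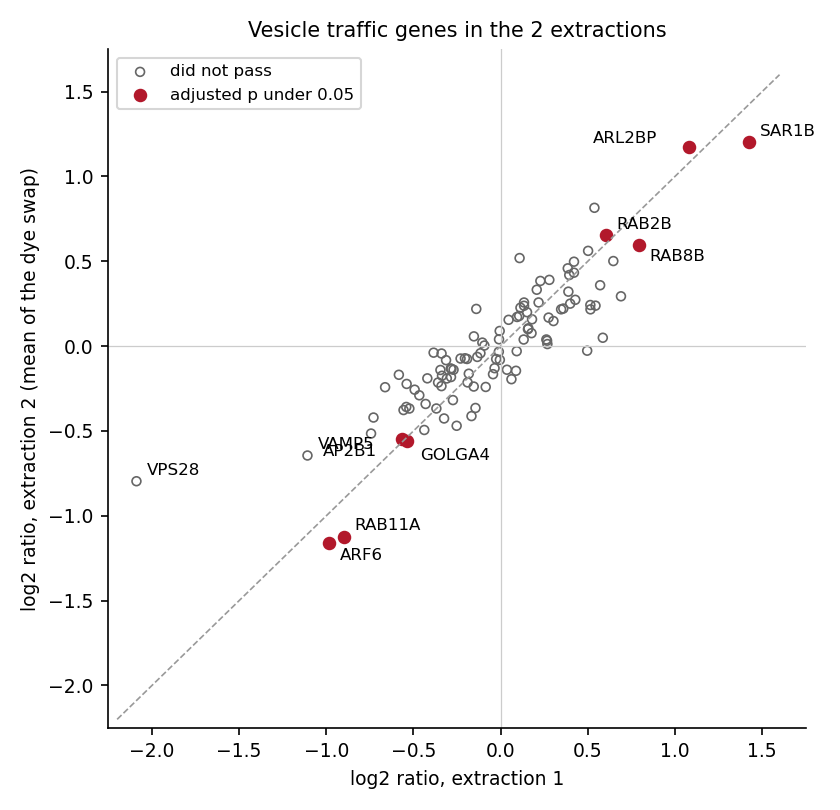
Log2 ratio in extraction 1 (horizontal axis) against the mean of the dye swap of extraction 2 (vertical axis) for the 106 genes; the dashed line marks equal values. The filled points, which passed the limma test, lie near the line, while VPS28, at −2.09 and a mean of −0.80, lies far from it. The test itself favours genes whose extractions agree, so this nearness is partly built in.

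SAR1B had the highest ratio of all 106 genes. It encodes a GTPase that starts the assembly of COPII coats at the endoplasmic reticulum (ER), the step by which secretory proteins leave the ER. SAR1B was at 1.43 in extraction 1 and at 1.20 and 1.21 on the Cy3 and Cy5 arrays of extraction 2. All 3 arrays were high and lay close together, and its 2 clones were at 1.24 and 1.39. The mean was 1.31 ± 0.16 (SD, n = 2 extractions), or 2.49-fold higher in E47 cells, with a moderated SE of 0.10 and an adjusted p of 0.0202. Of the genes that passed, SAR1B alone kept its call when the Cy5 array of extraction 2 was left out, at an adjusted p of 0.0451. When the arrays were scaled to a common spread its adjusted p was 0.05002, just over the threshold.

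The other COPII genes did not pass. SAR1A, the paralog of SAR1B, was at 0.21 in extraction 1 and 0.17 and 0.49 in extraction 2, below SAR1B on each array, and its mean of 0.27 did not pass (adjusted p of 0.144). Of the 9 measured genes of the COPII coat with SAR1, 1 passed, against 9.19% of all named genes. On every array 5 were above 0 and 4 below, where the shares of named genes were 30.6% and 32.8%. The inner coat genes SEC23A and SEC23B stood on opposite sides of 0. SEC23A was at 0.57 in extraction 1 and 0.56 and 0.16 in extraction 2, and SEC23B at −0.49, −0.20 and −0.31 in that order. The outer coat genes SEC31A, at a mean of 0.17, and SEC31B, at −0.26, were likewise on opposite sides, and SEC24C, which selects cargo, was at 0.31. SEC13, of the outer coat, and SEC16A, which organises ER exit sites, were at −0.21 and −0.25. None of these 7 SEC genes passed.

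Between Golgi and ER, the COPI subunit COPB2 was above 0 on all arrays, at 0.39, 0.49 and 0.35, with a mean of 0.41 ± 0.02 (SD, n = 2) and an adjusted p of 0.0754. The p24 cargo receptors TMED2, TMED4 and TMED8 were at means of 0.13, −0.45 and 0.02. SEC62, which works with the translocon in protein import into the ER, was at 0.42, 0.66 and 0.34, with a mean of 0.46 and an adjusted p of 0.0657. The translocon subunits SEC61A1 and SEC61B were at 0.10 and 0.13, and SEC11C, of the signal peptidase, was at −0.39. In the whole group of COPI, COPII, p24 and SEC genes, 0 of 18 passed in the limma test, against 9.19% of all named genes. The unadjusted p was under 0.05 for 7 of them, against 35.6% of named genes. On all arrays 8 genes were above 0 and 6 below, where the shares of named genes were 30.6% and 32.8%, and the median was 0.11.

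ARF6 had the lowest ratio among the genes that passed. It was at −0.98 in extraction 1 and at −1.11 and −1.22 on the Cy3 and Cy5 arrays of extraction 2. The mean was −1.07 ± 0.13 (SD, n = 2), or 2.11-fold lower, with a moderated SE of 0.10 and an adjusted p of 0.0241. Its 2 clones were at −1.20 and −0.83, and both lay below 0 on every array. Scaling the arrays ended the call (adjusted p of 0.0629), as did leaving out the Cy5 array of extraction 2 (0.0525). The Golgi ARFs, which recruit COPI and clathrin adaptors, had smaller ratios. ARF1 was below 0 on every array, at −0.54, −0.11 and −0.33, and its mean of −0.38 did not pass (adjusted p of 0.130). ARF3 and ARF5 had means of 0.04 and −0.20, and both changed sign within the dye swap. ARFGEF2, an exchange factor that activates ARF1, was at −0.54, −0.28 and −0.44, with its 3 clones between −0.57 and −0.33 and an adjusted p of 0.0800.

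ARL2BP, which encodes a binding partner of the GTPase ARL2 and is not a GTPase itself, rose. It was at 1.08 in extraction 1 and at 1.34 and 1.01 on the Cy3 and Cy5 arrays of extraction 2. The mean was 1.13 ± 0.07 (SD, n = 2), or 2.18-fold, with a moderated SE of 0.09 and an adjusted p of 0.0202. It was measured by 1 clone in 2 spots and its call ended when arrays were scaled (adjusted p of 0.0605) or the Cy5 array of extraction 2 was left out (0.0505). ARL6 and ARL3, GTPases that direct membrane proteins and lipidated cargo to primary cilia, were above 0 on every array, with means of 0.57 and 0.39 and adjusted p-values of 0.0520 and 0.122. ARL1, a GTPase of the trans-Golgi, was at −0.05. The remaining genes of the group, ARL6IP4 and ARL14EP, named for ARL proteins they bind, had means of −0.31 and 0.20.

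**Figure D3:**
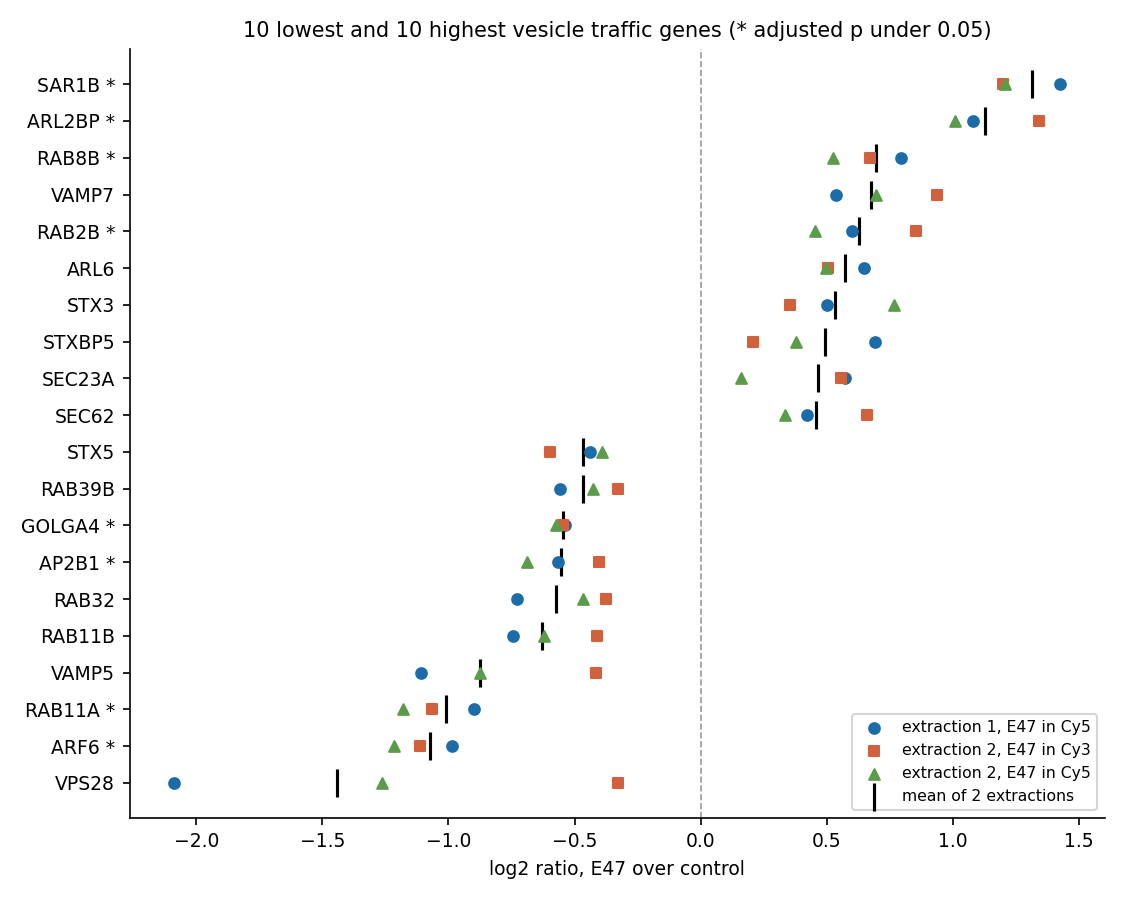
Log2 ratio of E47 over control on each array (symbols) and the mean of the 2 extractions (vertical ticks) for the 10 lowest and the 10 highest of the 106 genes; an asterisk marks an adjusted p under 0.05 in the limma test. All 3 symbols of each gene lie on 1 side of 0, and VPS28 has the widest spread, from −2.09 to −0.33.

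Among 28 measured Rab GTPases 2 rose, 1 fell and 25 did not pass, and the median was −0.10. Of all named genes 5.34% rose and 3.85% fell. RAB11A, which marks recycling endosomes and in epithelial cells carries cargo to the apical membrane, was at −0.90 in extraction 1 and at −1.07 and −1.18 on the Cy3 and Cy5 arrays of extraction 2. All 3 arrays were low and lay close together. The mean was −1.01 ± 0.16 (SD, n = 2), which is 2.02-fold lower, with a moderated SE of 0.10 and an adjusted p of 0.0264. Scaling the arrays ended the call (adjusted p of 0.0691), as did leaving out the Cy5 array of extraction 2 (0.0572). The paralog RAB11B, measured by 1 spot, was at −0.74, −0.41 and −0.62, with a mean of −0.63 and an adjusted p of 0.0537. RAB11FIP1, an effector that binds RAB11 on recycling endosomes, was at −0.37, −0.41 and −0.32, with a mean of −0.37 and an adjusted p of 0.0862. RAB11A, RAB11B and RAB11FIP1 were below 0 on every array, as were 41.5% of the 106 genes and 32.8% of all named genes. Of these RAB11 genes RAB11A alone passed, and they were set together after their values were seen.

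RAB8B, a Rab of transport to the plasma membrane, rose. It was at 0.79 in extraction 1 and at 0.67 and 0.53 on the Cy3 and Cy5 arrays of extraction 2. The mean was 0.70 ± 0.14 (SD, n = 2), or 1.62-fold, with an adjusted p of 0.0421. Its clones differed in size, at 0.35 and 1.04, and the call ended when arrays were scaled (0.0556) or the Cy5 array of extraction 2 was left out (0.0811). RAB8A, at a mean of 0.17, did not pass, and its clones had opposite signs, at −0.31 and 0.65, each with the same sign on every array. The difference between RAB8A and RAB8B therefore depends on which clone stands for each gene. The RAB8B clone at 0.35 lies below the RAB8A clone at 0.65, and the RAB8B clone at 1.04 lies above both RAB8A clones. RAB4A and RAB4B, of early recycling, were at −0.13 and −0.45 and below 0 on all arrays, and RAB14, which works between Golgi and endosomes, was at 0.15 with mixed signs.

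RAB2B, a Rab of traffic between ER and Golgi, was at 0.60 in extraction 1 and at 0.86 and 0.45 on the Cy3 and Cy5 arrays of extraction 2. The mean was 0.63 ± 0.04 (SD, n = 2), or 1.55-fold, with an adjusted p of 0.0397. It was measured by 1 clone, whose spots ran from 0.47 to 0.92, and with the median over spots the mean was 0.50 and the adjusted p 0.0584. The call also ended when arrays were scaled (0.0738) or the Cy5 array of extraction 2 was left out (0.0963). RAB2A had 12 spots of 4 clones, more than any other of the genes, and the clones lay between −0.46 and −0.22. Its mean of −0.38 did not pass (adjusted p of 0.1001). RAB1A, which acts on the same route, was at 0.39, 0.47 and 0.18, with an adjusted p of 0.0938, and the Golgi Rab RAB6A was at −0.17.

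The endosomal Rabs did not pass. RAB5A and RAB5C, which direct the fusion of early endosomes, had opposite signs on every array: RAB5A was at −0.32, −0.35 and −0.51 and RAB5C at 0.51, 0.44 and 0.05. RAB7A and RAB9A, of late endosomes, had means of −0.16 and −0.08. For RAB7A this mean joins clones at −0.63 and 0.31, each with the same sign on every array. RAB31, of transport from the trans-Golgi to endosomes, was at 0.42, 0.50 and 0.37, with a mean of 0.43 and an adjusted p of 0.0701. RAB32, which acts in the formation of lysosome-related organelles, was at −0.73, −0.38 and −0.47, with a mean of −0.58 and an adjusted p of 0.0728, and RAB39B was at a mean of −0.47 and 0.0747. The secretory vesicle Rabs RAB3A, RAB3B, RAB26, RAB27A and RAB27B lay between −0.29 and 0.13. Of other genes named for Rabs, RAB3IL1, an exchange factor for RAB3, was at −0.04 and RAB5IF at −0.21.

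Paralogs with a letter at the end of the symbol gave 11 pairs, in 8 of which the order was the same on all 3 arrays. The share among other pairs of genes was not computed, so this count is not a result about paralogs. The 8 include the RAB8 pair, whose order depends on the clones used. The largest differences were those of SAR1B over SAR1A, at 1.04 on the log2 scale, of RAB2B over RAB2A, at 1.01, of SEC23A over SEC23B, at 0.84, and of RAB5C over RAB5A, at 0.75. In 4 pairs the means had opposite signs: those of RAB2, RAB5, SEC23 and SEC31. A human clone may hybridise with several related dog transcripts, so the genes of a pair may be separated in part only. The pairs were formed with the values known, so the differences are given with no test.

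**Figure D4:**
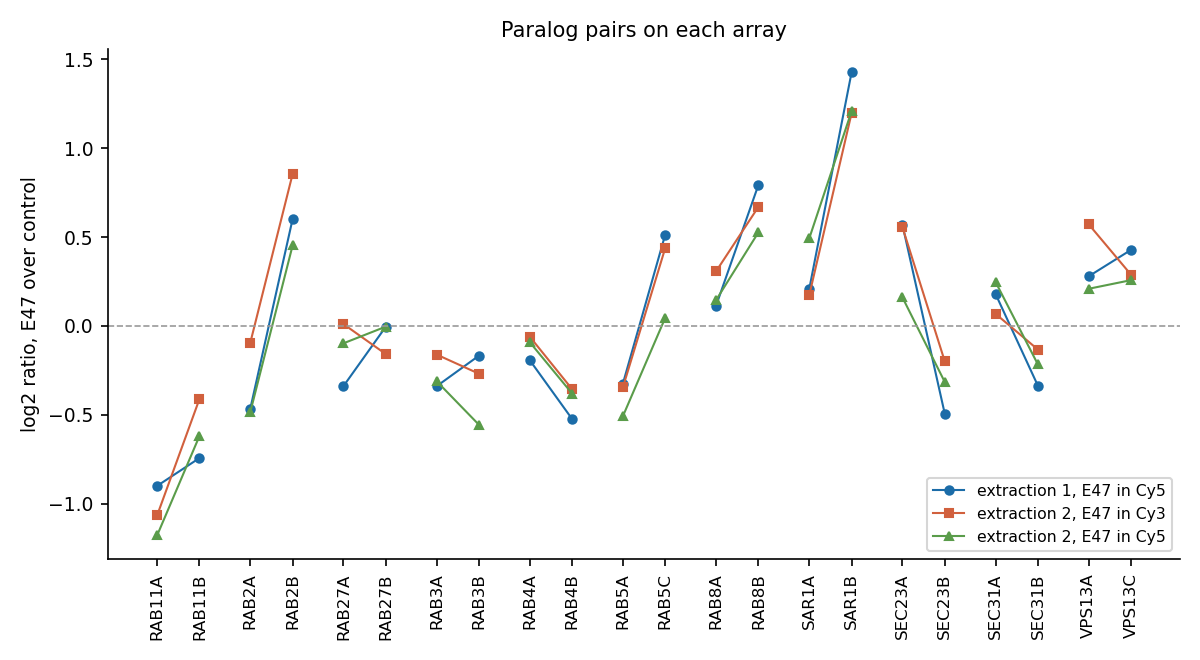
Log2 ratio of E47 over control (vertical axis) for 11 pairs of paralogs, with 1 line per array joining the genes of a pair. Lines that slope the same way on all 3 arrays are seen in 8 pairs, and the pairs of RAB27, RAB3 and VPS13 have lines that slope in different directions.

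Of 13 measured SNAREs and SNARE partners 0 passed in the limma test, against 9.19% of all named genes. The unadjusted p was under 0.05 for 7 of them, against 35.6% of named genes. They had a median of −0.04, with 4 above and 4 below 0 on all arrays, where the shares of named genes were 30.6% and 32.8%. Several lay close to the threshold. STX3, the syntaxin of the apical membrane in epithelia, was at 0.50 in extraction 1 and 0.36 and 0.77 in extraction 2, with a mean of 0.53 ± 0.04 (SD, n = 2) and an adjusted p of 0.0520. VAMP7, a vesicle SNARE of lysosomal and apical exocytosis, was at 0.54, 0.94 and 0.70, with a mean of 0.68 ± 0.20 (SD, n = 2) and an adjusted p of 0.0537. VAMP5 was at −1.11, −0.41 and −0.87, with a mean of −0.88 ± 0.33 (SD, n = 2) and an adjusted p of 0.0569. STX3 and VAMP7 were above 0, and VAMP5 below, on every array. STX5, the Golgi syntaxin, was at −0.44, −0.60 and −0.39, with an adjusted p of 0.0631. STXBP5, or tomosyn, which holds syntaxins back from fusion, was at 0.69, 0.21 and 0.38, with an adjusted p of 0.109. VAMP3 and VAMP8, of recycling and late endosomes, were at −0.07 and −0.21, and the endosomal syntaxin STX12 and the trans-Golgi syntaxin STX6 at −0.36 and −0.05. SNAP25, a neuronal plasma membrane SNARE, was at 0.23 ± 0.37 (SD, n = 2), with an SD above its mean.

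Among the genes of clathrin-mediated uptake, AP2B1, the beta subunit of the plasma membrane adaptor AP-2, fell. It was at −0.56 in extraction 1 and at −0.40 and −0.69 on the Cy3 and Cy5 arrays of extraction 2. The mean was −0.56 ± 0.01 (SD, n = 2), or 1.47-fold lower, with a moderated SE of 0.08 and an adjusted p of 0.0472. The call ended when incomplete spots were kept (0.0501), when arrays were scaled (0.0678) and when the Cy5 array of extraction 2 was left out (0.169). AP2M1, the cargo-binding subunit of the same adaptor, was at −0.31 in extraction 1 and at 0.22 and −0.38 in extraction 2, with a mean of −0.20 and an adjusted p of 0.258. The subunits of AP-3, an adaptor of endosome to lysosome transport, were at −0.14 for AP3D1, 0.18 for AP3M1 and 0.22 for AP3M2. The clathrin light chain CLTA had no value on any array.

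Of 17 sorting nexins and VPS proteins 0 passed in the limma test, against 9.19% of all named genes. The unadjusted p was under 0.05 for 7 of them, against 35.6% of named genes, and their median was 0.13. On all arrays 8 of them were above 0 and 5 below, where the shares of named genes were 30.6% and 32.8%. VPS28, a subunit of the ESCRT-I complex that sorts receptors for degradation, had the lowest mean of all 106 genes but differed most between arrays. It was at −2.09 in extraction 1 and at −0.33 and −1.26 on the Cy3 and Cy5 arrays of extraction 2. The mean was −1.44 ± 0.91 (SD, n = 2), with an adjusted p of 0.0940, and the 3 spots of its clone ran from −1.80 to −0.76. VPS37C, of the same complex, was at −0.30. The retromer genes VPS26A and VPS35, which return cargo from endosomes, and the related VPS35L were above 0 on all arrays, with means of 0.24, 0.14 and 0.28, and so were the lipid transfer proteins VPS13A and VPS13C at 0.34 and 0.35. VPS52 was below 0 on all arrays, at −0.28, −0.13 and −0.23. The 9 sorting nexins lay between −0.29, for SNX8, and 0.32, for SNX4, and 4 of them had mixed signs.

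Of 6 measured exocyst and synaptotagmin genes 0 passed in the limma test, and of 3 golgins 1 passed, against 9.19% of all named genes. The exocyst subunits EXOC2, EXOC5, EXOC6 and EXOC7 had means of −0.20, 0.42, 0.09 and 0.31; EXOC5, at 0.39, 0.72 and 0.20, came nearest to the threshold with an adjusted p of 0.0733. The synaptotagmins SYT7 and SYT12 were at −0.15 and −0.24. GOLGA4, a golgin that tethers vesicles at the trans-Golgi, fell, with −0.54 in extraction 1 and −0.54 and −0.57 on the Cy3 and Cy5 arrays of extraction 2. Its 3 values were nearly equal. The mean was −0.55 ± 0.02 (SD, n = 2), or 1.46-fold lower, with a moderated SE of 0.08 and an adjusted p of 0.0486, the nearest to the threshold of the genes that passed. The call ended when the Cy5 array of extraction 2 was left out (0.126), when arrays were scaled (0.0715) or centred (0.0508), and when incomplete spots were kept (0.0513). The other golgins, GOLGB1 (giantin) and GOLGA1, were at 0.29 and −0.25.

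Calls rested on small margins. Of the 8 genes, 8 kept their call from the Cy5 arrays alone, with robust eBayes and when named genes alone were tested. On the Cy5 arrays alone, a dye effect on a gene cannot be told apart from an effect of E47. The call was kept by 7 with median centring, by 7 with the median over spots and by 6 when incomplete spots were kept. Only 1 kept it without the Cy5 array of extraction 2 and 0 with scaled arrays, while the means kept their sign throughout. With scaled arrays 48 of the 106 genes still had an unadjusted p under 0.05 in the limma test, as did 1936 of all 5508 named genes. Of all named genes 1.23% passed with scaled arrays and 1.98% without the Cy5 array of extraction 2. From the Cy5 arrays alone 18 of the 106 genes passed, 7 higher and 11 lower, where 16.7% of all named genes passed.

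**Figure D5:**
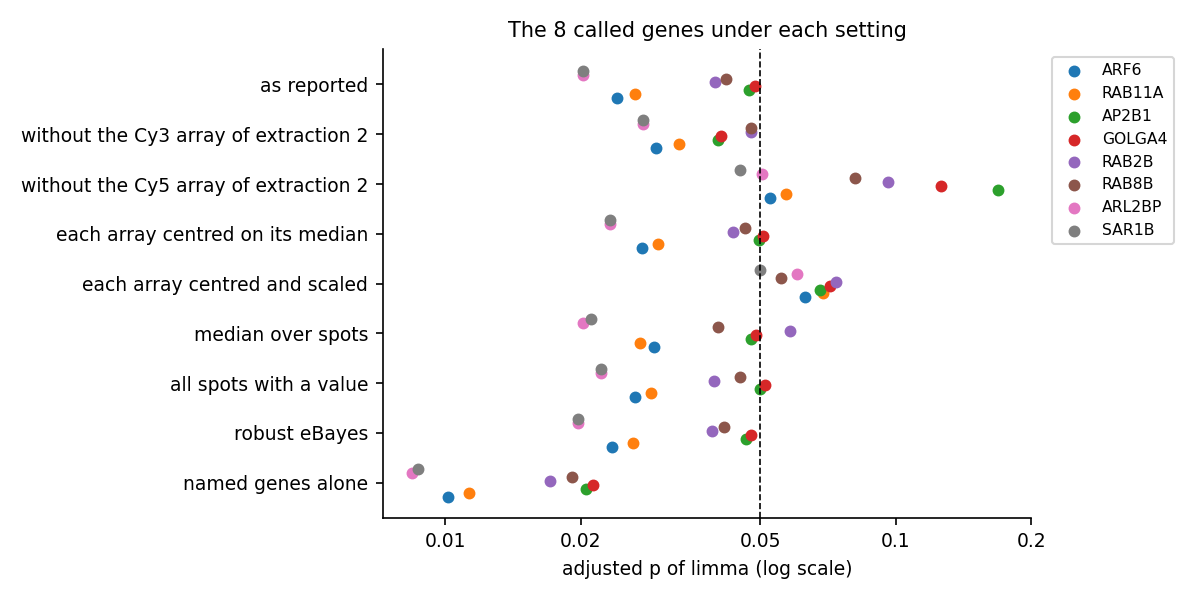
Adjusted p of the limma test (horizontal axis, log scale) for the 8 genes that passed, under the reported setting and 8 alternatives; the dashed line marks 0.05. With scaled arrays all 8 points lie at or to the right of the line, and when the Cy5 array of extraction 2 is left out SAR1B alone lies to its left.

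Several clones were present for 23 of the 106 genes, and in 5 of these, RAB7A, RAB8A, SNX1, SYT7 and VAMP3, the clones had opposite signs. Of the genes that passed, ARF6, SAR1B and RAB8B had several clones, with 1 sign each. The widest gap between clones of a gene was 0.96, in RAB8A.

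The 14 genes without a complete measurement were not tested. AP2S1, the small subunit of AP-2, was at −0.70 and −0.51 on the Cy5 arrays of extractions 1 and 2, RAB10, of basolateral transport, at −0.61 and −0.49, VPS8, of endosomal tethering, at −0.65 and −0.49, and VPS72, which belongs to chromatin complexes despite its name, at −0.77 and −0.77. AP4M1 and SYTL1 were also below 0 on both Cy5 arrays. NSF, the ATPase that takes SNARE complexes apart, was at 0.27 in extraction 1 and 0.88 on the Cy3 array. TMED10 was at −0.89 on the Cy3 array alone, and AP1M1 and RAB3D had a value on that array only. ARF4, whose spots covered the arrays in part, was at −0.30, 0.58 and 0.09, and RAB28 was at −0.06 and 0.06. RAB11FIP3, like CLTA, had no value.

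Other genes of membrane traffic, whose symbols the choice did not take, were read from a list of 195, of which 71 were measured. In the same limma fit 2 rose and 3 fell (7.04% in all, against 9.19% of named genes), with a median of −0.09. MAL, a proteolipid of apical transport in MDCK cells, was at −1.71 in extraction 1 and at −0.84 and −1.21 on the Cy3 and Cy5 arrays of extraction 2, with a mean of −1.37 ± 0.49 (SD, n = 2), or 2.58-fold lower, and an adjusted p of 0.0444. RABGGTB, a subunit of the enzyme that adds the lipid anchor to Rab proteins, was at 1.23, 1.18 and 1.27, with a mean of 1.23 and an adjusted p of 0.0197; its partner subunit RABGGTA did not pass. TFG, of ER exit sites, fell to −0.69 and ERGIC1, of the compartment between ER and Golgi, to −0.67, while ERGIC2 rose to 0.69, with adjusted p-values of 0.0341, 0.0367 and 0.0405. Of these 5 genes, RABGGTB alone kept its call when the Cy5 array of extraction 2 was left out, and MAL alone with scaled arrays. With robust eBayes MAL lost its call, at an adjusted p of 0.0502, and the other 4 kept theirs.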

How the data were processed

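The deposited values are log2 ratios of 2-colour arrays, 1 column per array, used as the authors gave them. How they were corrected and normalized, their log base and their direction are not stated in the sources used here. Base 10 was excluded because the largest value, 7.80, exceeds the log10 range of a 16-bit scanner, 4.82. The columns, dye swap included, correlated positively, so no sign was turned. Column medians were −0.0051, 0.0027 and 7.67e-04. Intensities were not used, so no dim spots were filtered. Precision is limited by the number of arrays.

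Of 27648 spots, 23275 had a value on each of the 3 arrays and entered the analysis. Values were averaged per gene, and 8500 spots without a single symbol were kept as features. The dye swap of extraction 2 was averaged, leaving n = 2 and 1 residual degree of freedom. Extraction 1 has no swap, so a dye effect on a gene is not fully cancelled in the mean. The ratios of 14008 features were compared with 0 in limma 3.58.1 (lmFit, eBayes, R 4.3.3, prior of 2.71 degrees of freedom). Benjamini-Hochberg adjustment ran over all features, with a threshold of 0.05. In simulated data with independent errors, 34 of 100 features changed 2-fold passed, as did 94 of 100 changed 4-fold and 6 of 13808 unchanged. The simulation changed far fewer features than the 1062 that passed in the data, and it held no dye effect and no shared control. Its shares are therefore not the power of this experiment, which is not known. A gene that did not pass may still have changed. The control enters only as the other channel of each array, and no source used here says whether its RNA was 1 preparation or several; if it was 1, its own spread is left out. The p-values rest on the spread between the extractions, which may be technical, moderated toward a spread estimated over all features. Because only extraction 2 has a dye swap, the spread between extractions also takes in differences between dyes.

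The genes, role groups and list of other genes were chosen with earlier results of these data known, and the complexes within role groups and the pairs with the values known; none gets a test. Named are genes that passed, the 10 highest and 10 lowest, all genes of role groups of up to 6, and further genes described by complex after their values were seen. Figures were drawn with matplotlib 3.10.9.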

Additional observations from a re-analysis of the deposited data

How the results depend on the processing

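Alternatives changed the arrays, normalization, spots, prior and threshold of the limma test. The count of 8 vesicle traffic genes that passed became 18 without the Cy3 array of extraction 2, 1 without its Cy5 array, 0 with scaled arrays (48 at an unadjusted p under 0.05), 27 with named genes alone and 28 at an adjusted p under 0.10. Under the same settings the count of 506 among all 5508 named genes became 919, 109, 68 (1936 at an unadjusted p under 0.05), 1175 and 1244. The count of other genes of membrane traffic, 5 of 71, became 10, 1, 1, 12 and 14. Over all 14008 features the count of 1062 became 2036 without the Cy3 array, 242 without the Cy5 array, 133 with scaled arrays and 2643 at the threshold of 0.10. Median centring, the median over spots, incomplete spots and robust eBayes kept each count within 1.5 times. The median of the vesicle traffic genes was −0.04 in the report, between −0.0521 and −0.0352 under the alternatives that keep both extractions, and between −0.0357 and −0.0179 with 1 extraction left out. No gene named by the rule reversed sign among those called. The 3-array fit with the extraction as a random block could not be run, because the correlation needs more than 3 arrays. No paired analysis was possible because every array already pairs E47 with control RNA and there is 1 group. Array number and unknown signal over background limit precision.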
